A study of Mus musculus with 50 samples.

Results

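The pentose phosphate pathway and its companions in cytosolic NADPH supply were represented by 9 listed genes: G6pdx, Pgls and Pgd of the oxidative branch, Rpia, Rpe, Tkt and Taldo1 of the non-oxidative branch, and the NADPH-producing enzymes Me1 and Idh1. They were found by gene symbol among the 18120 symbols of the deposited array table, and each gene was followed with the probe of highest mean signal over all 50 arrays. A probe was present for 8 of the 9 genes, with 11 probes among the table's 25697. Me1 was listed under its older symbol Mod1, and Rpe, the ribulose-phosphate epimerase, had no probe under its symbol or synonyms and is not analysed here. The 8 chosen probes all belonged to the 13487 probes (10111 genes) that were tested.

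The study measured RNA of synaptosomes, pinched-off nerve endings prepared from frontal cortex, on Illumina bead arrays with 1 array for each individual CD1-background mouse, 17 to 21 days old. The knockouts lacked Sod2, the superoxide dismutase of mitochondria, constitutively. There were 10 knockouts given the high dose (30 mg/kg) and 10 knockouts given the low dose (1 mg/kg) of a salen-manganese antioxidant, against 9 untreated wild types, 11 low-dose wild types and 10 high-dose wild types. The compound is EUK8 in the sample titles and EUK189 in the treatment field. The series holds no untreated knockouts, so every knockout here had also received the compound.

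The oxidative branch turns glucose 6-phosphate into ribulose 5-phosphate and reduces NADP to NADPH on the way, at the steps of G6pdx (glucose-6-phosphate dehydrogenase, the committed step) and Pgd (6-phosphogluconate dehydrogenase), with Pgls (6-phosphogluconolactonase) between them. The non-oxidative branch interconverts sugar phosphates and makes no NADPH: Rpia isomerises ribose phosphate, and Tkt (transketolase) and Taldo1 (transaldolase) return carbon to glycolysis. Me1, the cytosolic malic enzyme, and Idh1, the cytosolic and peroxisomal isocitrate dehydrogenase, make NADPH without the pathway. NADPH keeps glutathione and thioredoxin reduced and feeds fatty acid and sterol synthesis, and in brain these systems remove peroxides. G6pdx, Pgd, Tkt, Taldo1 and Me1 are known targets of Nrf2, a transcription factor that acts through antioxidant response elements.

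The promoters of G6pdx and Me1, the genes with the largest changes below, are shown because each holds the core letters of that element (RefSeq, GRCm38.p6, 250 bases before to 50 bases after the gene's start, read 5′ to 3′ on the gene's strand). Capitals mark the match to TGACNNNGC, which lies on the gene's strand in Me1 and on the opposite strand in G6pdx.
G6pdx, chrX:74428831-74429130, minus strand: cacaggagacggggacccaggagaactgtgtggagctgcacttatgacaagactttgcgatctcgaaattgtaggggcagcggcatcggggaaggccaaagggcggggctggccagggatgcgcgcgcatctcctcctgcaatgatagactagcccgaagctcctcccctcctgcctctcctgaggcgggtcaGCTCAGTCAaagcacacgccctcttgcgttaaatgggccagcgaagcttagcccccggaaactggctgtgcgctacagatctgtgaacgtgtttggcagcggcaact
Me1, chr9:86695865-86696164, minus strand: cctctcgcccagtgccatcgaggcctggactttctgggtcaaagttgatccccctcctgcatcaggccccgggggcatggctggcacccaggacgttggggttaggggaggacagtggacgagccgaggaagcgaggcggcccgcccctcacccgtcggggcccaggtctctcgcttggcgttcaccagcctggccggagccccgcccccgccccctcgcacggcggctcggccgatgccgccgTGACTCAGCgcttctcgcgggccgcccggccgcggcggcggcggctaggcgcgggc
The matched letters begin 57 bases before the start in G6pdx and 6 bases before it in Me1. All 9 listed genes had a promoter entry, with 12 entries in all. A further match lay in 1 of the entries of Pgd. None lay in the other entry of Me1, which is not shown, or in those of Pgls, Rpia, Rpe, Tkt, Taldo1 or Idh1. On both strands, 12.4% of the 32851 promoters in the table held these letters (4071 promoters). The core of the sterol regulatory element, TCACNCCAC, was in no entry of the 9 genes and in 1.24% of all promoters. A match describes letters in this window and is not evidence of binding.

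Levels are log2 values of bead signal after background correction and quantile normalization, and changes are fitted log2 differences from limma with chip as a factor, called at a Benjamini-Hochberg adjusted p under 0.05 over all tested probes. Array medians lay between 54.1 and 78.0 signal units, and 10125 to 12573 probes per array were above background. Signal of the Sod2 probe was seen in all groups and was higher in low-dose knockouts than in low-dose wild types (0.41 ± 0.0954, SE, limma adjusted p = 0.00117). No source used here says whether that probe lies in the deleted part. Of the 8 measured genes, 7 were above background on all 50 arrays, and Rpia, with a mean signal of 73.8, on 41. The Pgls probe carries the symbol Pgls but a description naming Bcnp1, a neighbouring gene, so its identity is uncertain. None of the members lies on the chromosome of Sod2.

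At the low dose, knockouts had more G6pdx, Me1, Tkt and Idh1 RNA than wild types. These were 4 of 8 members higher and 0 lower, against 10.8% of all tested probes higher, and the members' median change was 0.30 against -0.00316 over all probes. The remaining members, Pgls, Pgd, Rpia and Taldo1, did not pass the test. The gains ran from 1.27-fold for Idh1 to 2.02-fold for G6pdx.

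G6pdx was the most changed member. Its level lay between 6.96 and 7.91 with a median of 7.40 in low-dose knockouts, against 6.27 to 6.55 with a median of 6.41 in low-dose wild types. Every low-dose knockout was above the highest low-dose wild type, so the groups did not overlap. The share of all tested probes without overlap is not given here for any contrast. The fitted change was 1.01 ± 0.104 (SE, n = 10 and 11, limma adjusted p = 2.84e-10), rank 35 of 13487 probes by p. G6pdx lies on the X chromosome, and the labels give no sex. Arrays fell into 29 with clear signal of the Y-linked gene Ddx3y (at least 118 units over background) and 21 without it (at most 20.2), and every group held both kinds. With Ddx3y, G6pdx averaged 7.58 in low-dose knockouts (6 arrays) and 6.39 in low-dose wild types (6 arrays); without it, 7.25 in low-dose knockouts (4 arrays) and 6.46 in low-dose wild types (5 arrays). With this class as a covariate the G6pdx change was also 1.01.

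The next oxidative enzymes differed less. Pgd lay between 7.74 and 8.36 (median 8.05) in low-dose knockouts and between 7.38 and 8.16 (median 7.85) in low-dose wild types, and the groups overlapped. Its change was 0.18 (95% interval 0.0256 to 0.343, limma adjusted p = 0.0914), which passed only without a chip term (adjusted p = 0.0455) or with chip as a random effect (0.0481). For the Pgls probe the difference was 0.26 (interval 0.000693 to 0.510, limma adjusted p = 0.155), and 4 of the knockouts exceeded the highest wild type.

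In the non-oxidative branch, Tkt alone rose. Tkt lay between 8.25 and 9.38 (median 9.21) in low-dose knockouts and between 7.92 and 8.79 (median 8.42) in low-dose wild types. Of the 10 knockouts, 8 were above the highest wild type, and the other 2 lay within the wild-type range. The change was 0.61 ± 0.127 (SE, limma adjusted p = 0.000368). A dim second Tkt probe, above background on 22 arrays, gave 0.22 (limma adjusted p = 0.137), and another, above background on 6 arrays, was not tested. Taldo1 gave 0.05 (95% interval -0.117 to 0.223) and Rpia 0.00411 (interval -0.174 to 0.183), neither called. For Taldo1, rises above the upper bound lay outside the interval. Rpia was dim on every array, with signals between 54.9 and 88.8, so its interval is not read as a bound on its RNA change.

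Me1 and Idh1 were both higher in low-dose knockouts. Me1 lay between 8.59 and 9.68 (median 8.94) in low-dose knockouts and between 7.73 and 8.96 (median 8.06) in low-dose wild types. Only the 2 highest wild types reached the knockout range, and all 10 knockouts were above the wild-type mean. Its change was 0.76 ± 0.101 (SE, limma adjusted p = 1.83e-07), and a second probe for Me1 gave 0.77 (limma adjusted p = 4.18e-08). Idh1 lay between 9.19 and 10.2 (median 9.48) in low-dose knockouts and between 8.83 and 9.80 (median 9.17) in low-dose wild types, with most of both ranges shared. Its change of 0.34 ± 0.122 (SE, limma adjusted p = 0.0395) was not called under median scaling (adjusted p = 0.15), with no filter (0.0623), with only the arrays of the contrast (0.0869) or without the 5 dimmest arrays (0.174).

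**Figure D1:**
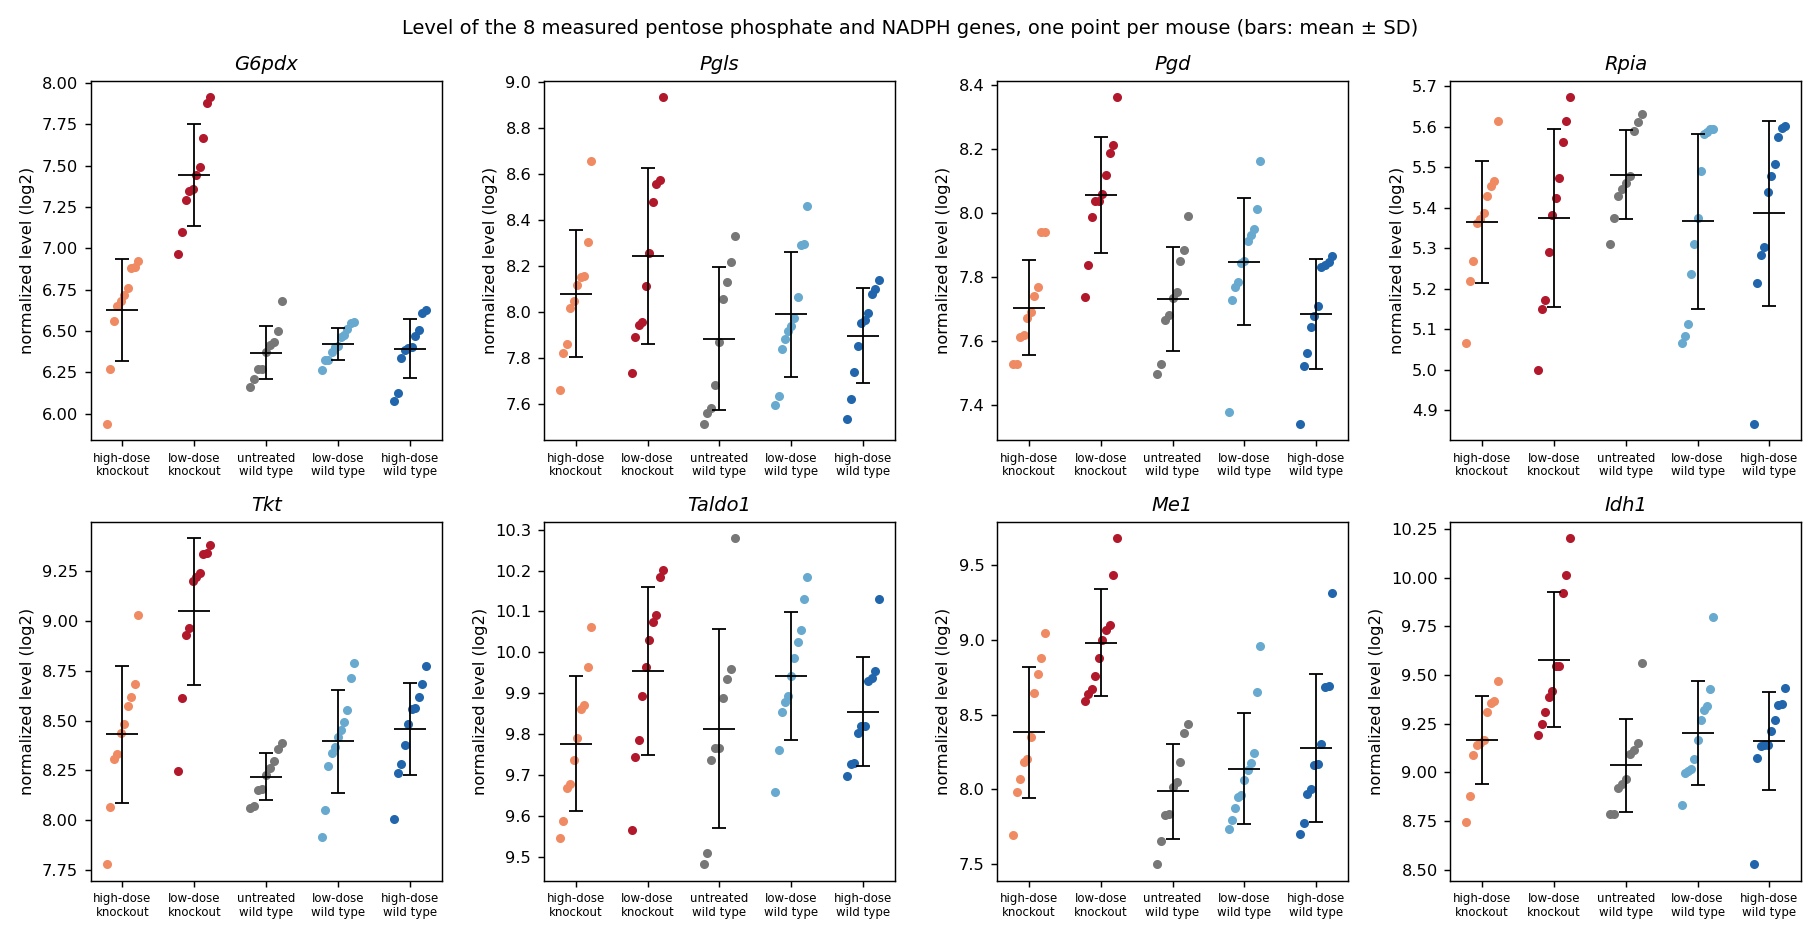
Normalized level (log2) of each of the 8 measured genes, with 1 point per mouse and bars for the mean ± SD of each of the 5 groups. G6pdx is at 6.96 or higher in every low-dose knockout and at 6.68 or lower in every wild type, whereas Rpia and Taldo1 overlap in all groups.

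At the high dose the same comparison called 0 of 8 members, against 0.578% of all probes called in either direction. At an unadjusted p under 0.05 there were 2 members, G6pdx and Me1, among 1513 probes. G6pdx lay between 5.94 and 6.92 (median 6.70) in high-dose knockouts and between 6.08 and 6.63 (median 6.40) in high-dose wild types. Of the 10 high-dose knockouts, 7 were above the highest high-dose wild type and 1 was below the lowest, with the lowest G6pdx value of all 50 arrays. The change was 0.25 ± 0.103 (SE, limma adjusted p = 0.312). Me1 gave 0.22 ± 0.101 (limma adjusted p = 0.373), with medians of 8.28 in high-dose knockouts and 8.16 in high-dose wild types. For Tkt and Idh1 the fitted differences were -0.01 (95% interval -0.265 to 0.244) and -0.02 (interval -0.260 to 0.228).

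The difference between the genotype effects, high minus low dose, was itself tested. It was called as lower for 3 of 8 members, G6pdx, Tkt and Me1, against 2.1% of all probes. The G6pdx genotype effect was 0.25 at the high dose and 1.01 at the low dose, a difference of -0.76 ± 0.145 (SE, limma adjusted p = 0.00102) that was called under all 13 alternatives. Tkt differed by -0.62 ± 0.178 (adjusted p = 0.0438) and Me1 by -0.53 ± 0.142 (adjusted p = 0.0269). The dim second Tkt probe gave -0.23 (limma adjusted p = 0.473, not called) and the second Me1 probe -0.49 (limma adjusted p = 0.0324). The Tkt call was lost under 4 of 13 alternatives (adjusted p up to 0.107) and the Me1 call under 5 (up to 0.0902). Idh1 differed by -0.36, and its adjusted p of 0.290 did not pass.

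**Figure D2:**
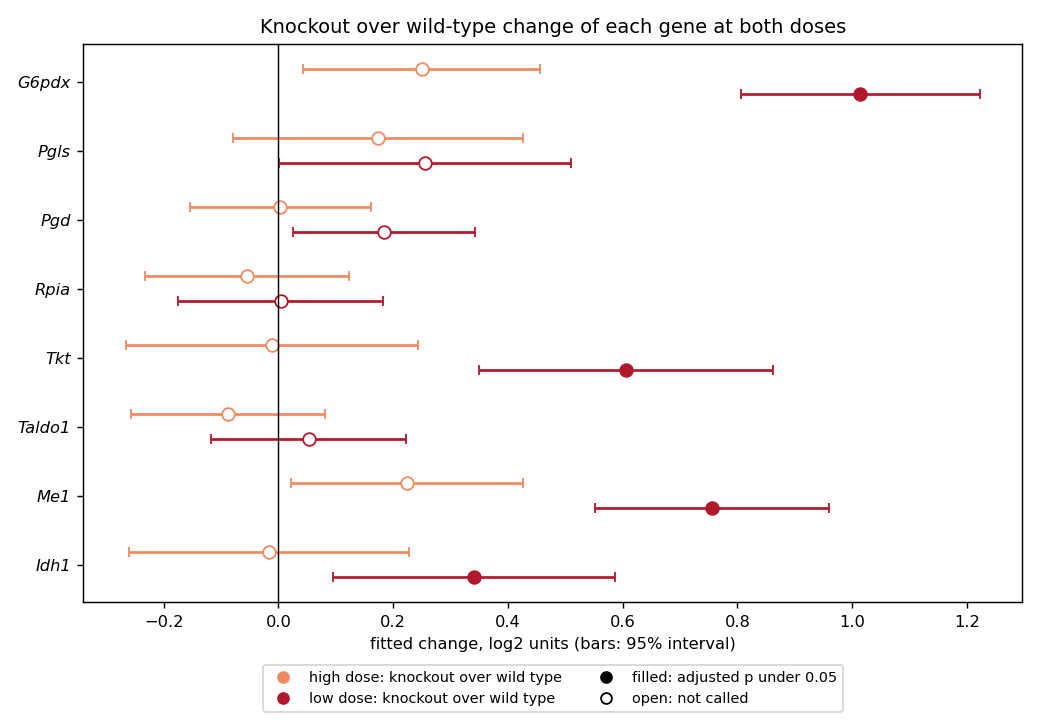
Fitted knockout over wild-type change (log2 units) with its 95% interval for each gene, at the high dose (upper of each pair, orange) and the low dose (lower, red), filled where the adjusted p was under 0.05. G6pdx, Tkt, Me1 and Idh1 are filled at the low dose, and no gene is filled at the high dose.

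Within the knockouts, the high dose went with lower RNA of 5 of 8 members than the low dose, against 10.6% of all probes lower. This contrast shares the low-dose knockouts with the comparison above, so it repeats part of it. G6pdx averaged 6.63 ± 0.308 in high-dose knockouts and 7.45 ± 0.308 in low-dose knockouts (SD, n = 10 each), without overlap, a change of -0.83 (limma adjusted p = 5.17e-08). Me1 changed by -0.62 (limma adjusted p = 1.16e-05), Tkt by -0.62 (0.000323), Idh1 by -0.39 (0.0153) and Pgd by -0.36 (0.00058). Pgd lay between 7.53 and 7.94 in high-dose knockouts and between 7.74 and 8.36 in low-dose knockouts, and no high-dose knockout was above the low-dose mean. The Idh1 call was lost under median scaling (adjusted p = 0.185) and without the 5 dimmest arrays (0.0535). Pgls (-0.19), Taldo1 (-0.19) and Rpia (0.000493) were not called, and no member was higher in high-dose knockouts (9.3% of all probes were). Cell type markers moved in the same contrast. Synaptic terminal markers rose in 4 of 5 tested, inhibitory neuron markers in 4 of 5 and excitatory neuron markers in 2 of 4, with none lower, and of 6 astrocyte markers 2 rose and 3 fell. The summed synaptic signal was 7164 to 15970 (median 10680) in high-dose knockouts and 4294 to 12860 (median 5854) in low-dose knockouts, and that of the inhibitory list 1439 to 2901 (median 1956) in high-dose knockouts and 901.7 to 1989 (median 1278) in low-dose knockouts. No tested oligodendrocyte, microglial, endothelial or red blood cell marker was called, and the part of these shifts in the members' changes was not tested.

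In wild types the dose comparisons called no probe. In limma, neither the high dose over the low dose nor either dose over no treatment called any of the 13487 probes (0%), with 527, 1837 and 909 probes at an unadjusted p under 0.05 for high over low, low over untreated and high over untreated. Among the members 1 (Pgd), 1 (Me1) and 0 had such a p. G6pdx averaged 6.37 ± 0.161 in untreated wild types (SD, n = 9), 6.42 ± 0.0963 in low-dose wild types (n = 11) and 6.39 ± 0.181 in high-dose wild types (n = 10). These neighbouring means differed by less than 1 SD. Me1 had the largest wild-type difference of the members, 0.28 for low dose over untreated in the fit with chip (limma adjusted p = 0.216), where its second probe gave 0.13. Its plain means, not adjusted for chip, were 7.99 ± 0.316 in untreated, 8.14 ± 0.371 in low-dose and 8.28 ± 0.493 in high-dose wild types.

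Set against untreated wild types, which differ from the knockouts in genotype and treatment at once, low-dose knockouts were higher in 6 of 8 members (15.7% of all probes higher). G6pdx (1.08) and Me1 (1.04) did not overlap with the untreated wild types, and the share of all probes without overlap is not given. Tkt (0.82), Idh1 (0.51), Pgls (0.34, limma adjusted p = 0.0451) and Pgd (0.28, limma adjusted p = 0.00664) followed. The count was 3 under median scaling, and the Pgls call was lost under 6 of 13 alternatives. High-dose knockouts were higher in 1 of 8 members (0.638% of all probes), Me1 (0.42 ± 0.105, limma adjusted p = 0.0353), and that call was lost under 6 of 13 alternatives (adjusted p up to 0.258). The second Me1 probe gave 0.36 there (limma adjusted p = 0.0627) and was not called. Against untreated wild types, low-dose knockouts were also lower in 5 of 5 tested synaptic, 5 of 5 inhibitory, 3 of 4 excitatory and 3 of 5 oligodendrocyte markers. No marker of these lists was higher, and 16.3% of all tested probes were lower in this contrast. Of 6 astrocyte markers 2 rose and 1 fell, 1 of 6 microglial markers rose, 1 of 2 red blood cell markers rose and the other fell, and no endothelial marker was called. The summed synaptic signal was 4294 to 12860 (median 5854) in low-dose knockouts and 7834 to 20740 (median 12700) in untreated wild types, and the part of these shifts was not tested either. No marker was called for high-dose knockouts over untreated wild types, where 0.994% of all probes were called in either direction. From high to low, the plain group means of G6pdx, not adjusted for chip, ran low-dose knockout, high-dose knockout, low-dose, high-dose and untreated wild type. The plain means of Me1 had the same order with the high-dose and low-dose wild types exchanged. In the fit with chip Me1 was not higher in high-dose than in low-dose wild types (-0.09, not called), and the highest high-dose wild type, at 9.31, lay on the chip that held no low-dose wild type. For Tkt and Idh1 the low-dose knockouts were also highest and the untreated wild types lowest. In these 4 genes, neighbouring groups below the low-dose knockouts differed by less than the larger of their SDs.

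To set the branches side by side without comparing levels of different probes, each gene's level was taken as its shift from the untreated wild-type mean and averaged per branch and mouse. The oxidative branch stood at 0.14 ± 0.137 in high-dose knockouts and 0.59 ± 0.177 in low-dose knockouts (SD), against 0.09 ± 0.141 in low-dose and -0.00301 ± 0.121 in high-dose wild types. The non-oxidative branch stood at 0.02 ± 0.122 in high-dose knockouts and 0.29 ± 0.210 in low-dose knockouts, against 0.06 ± 0.116 in low-dose and 0.06 ± 0.107 in high-dose wild types. The oxidative shift exceeded the non-oxidative one in 9 of 10 high-dose knockouts and 10 of 10 low-dose knockouts, against 3 of 9 untreated, 7 of 11 low-dose and 4 of 10 high-dose wild types.

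The mean of this branch difference was 0.12 ± 0.105 in high-dose knockouts and 0.30 ± 0.168 in low-dose knockouts, against 0.03 ± 0.132 in low-dose and -0.06 ± 0.122 in high-dose wild types. No test was made over the averaged members. The oxidative mean includes the Pgls probe of uncertain identity, and the non-oxidative mean includes the dim Rpia probe, above background on 41 of 50 arrays. In low-dose knockouts its size depended on which members were averaged: it was 0.0563 without G6pdx, 0.572 without Tkt and 0.327 without both. Each branch thus held 1 called gene at the low dose, G6pdx in the oxidative and Tkt in the non-oxidative branch, and 2 members that were not called.

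**Figure D3:**
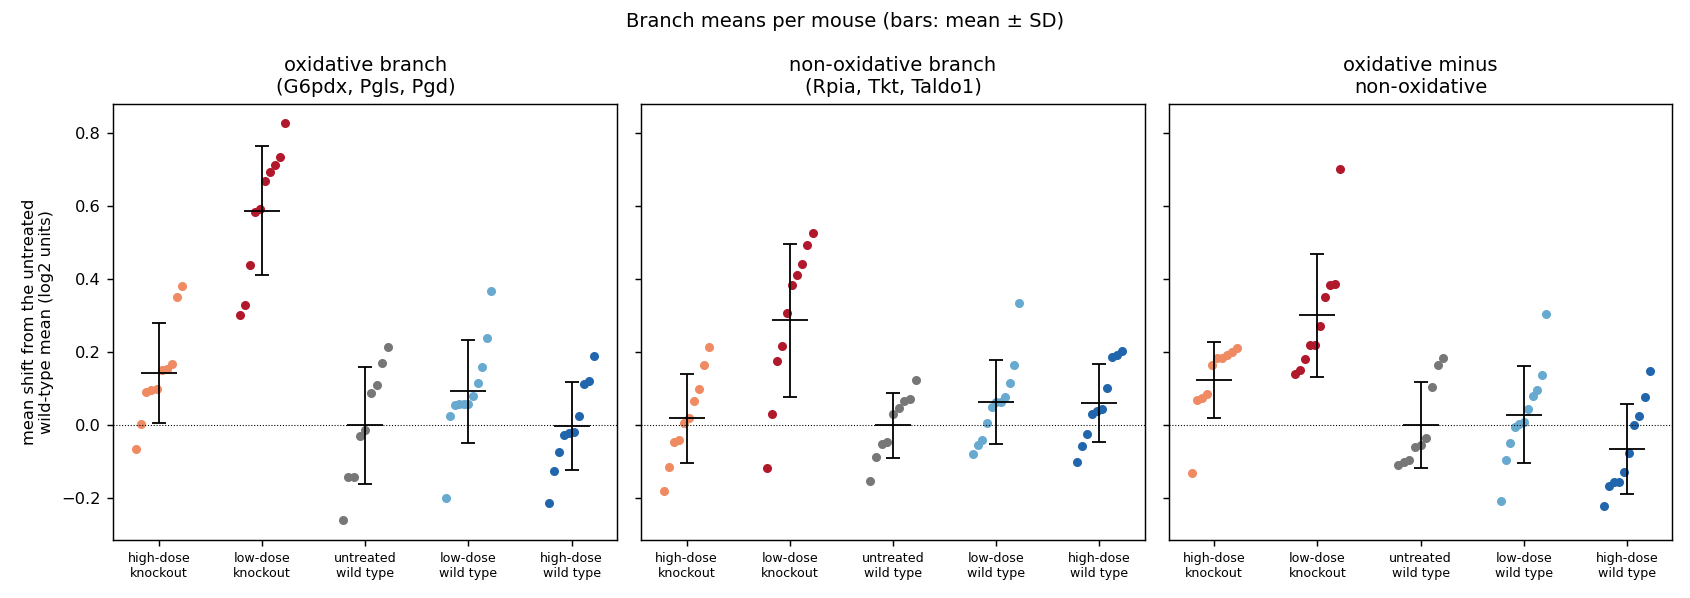
Mean shift of each branch from the untreated wild-type mean, and the difference between branches, in log2 units, with 1 point per mouse and bars for the mean ± SD of each group. In low-dose knockouts the oxidative branch runs from 0.30 to 0.83 and the non-oxidative branch from -0.12 to 0.53, the lowest of them among the wild types, and the difference between branches is above 0 in all 10 mice.

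The arrays lay on 7 chips, of which 6 held all 5 groups. The low-dose genotype difference of G6pdx, Tkt, Me1, Idh1 and Pgd was above 0 within each of these 6 chips. Each low-dose group had only 1 to 3 arrays on a chip. Pgd, not called in the fit, ran from 0.000575 to 0.341. Within a chip, G6pdx differed by 0.560 to 1.44, Me1 by 0.290 to 1.07 and Tkt by 0.240 to 0.765. Idh1 ran from 0.00120 to 0.976, with its largest differences on 2 of the chips. For Rpia and Taldo1 only 3 of 6 chips had the sign of the fit. At the high dose G6pdx was higher in knockouts on 5 of 6 chips (-0.184 to 0.525) and Me1 on 6 of 6 (0.0683 to 0.534).

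**Figure D4:**
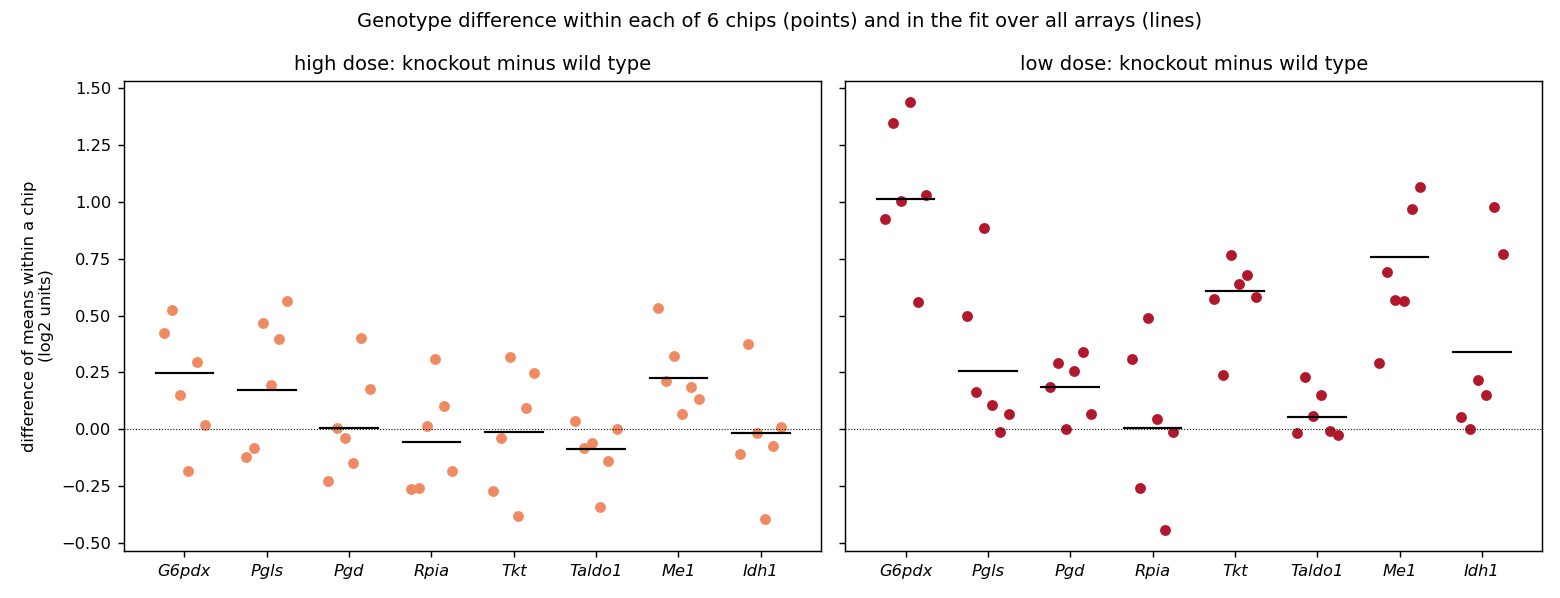
Knockout minus wild-type difference of group means (log2 units) within each of 6 chips (points) beside the fitted change (lines), at the high dose on the left and the low dose on the right. G6pdx, Tkt and Me1 points are above 0 on every chip at the low dose, while Rpia and Taldo1 points lie on both sides of 0.

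Across the 50 arrays the members did not move as a block. The correlation with G6pdx, as a description over arrays that share groups and chips, was 0.645 for Me1, 0.582 for Tkt and 0.558 for Idh1, and with group and chip removed these became 0.133, -0.176 and 0.244. Pgls and Tkt kept 0.586 and Pgls and Taldo1 0.525 after this removal. Among 10111 genes, those most like G6pdx over the 50 arrays were Ephx1 (microsomal epoxide hydrolase, r = 0.905), Gclm (a subunit of the glutathione synthesis enzyme, 0.898) and Sat1 (polyamine acetyltransferase, 0.891). With group and chip removed these became 0.50 for Ephx1, 0.504 for Gclm and 0.606 for Sat1. Among those most like Me1 were Acadsb (0.872) and Cdc16 (0.870). Tkt was most like Acy1 (0.817), Pfkp (0.801) and Akt2 (0.785), and Idh1 most like Glud1 (0.852), Fbxo3 (0.843) and Pdha1 (0.832). After the same removal Acadsb kept 0.45 and Cdc16 0.690 with Me1, the 3 genes named for Tkt kept 0.542 to 0.652, and those named for Idh1 kept 0.755 to 0.851. The genes named here for each member do not recur for another.

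Neighbouring parts of NADPH metabolism were counted for the same low-dose comparison, in which 10.8% of all probes were higher and 10.1% lower. Of the mitochondrial and folate-linked NADPH enzymes, 4 of 6 tested rose and 0 fell (median 0.61). These were Idh2, the mitochondrial isocitrate dehydrogenase (0.85), the folate enzymes Mthfd1 (0.64) and Aldh1l2 (0.64), and glutamate dehydrogenase Glud1 (0.57). Idh2 averaged 9.32 ± 0.504 in low-dose knockouts and 8.35 ± 0.303 in low-dose wild types (SD, n = 10 and 11). At the high dose 1 of 6 rose, Idh2 (0.56 ± 0.139, limma adjusted p = 0.0437), where 0.578% of all probes were called in either direction. In high-dose against low-dose knockouts 5 of 6 were lower, against 10.6% of all probes.

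Enzymes that lead into or out of the pentose phosphate pathway changed in few cases, set against 10.8% of all probes higher and 10.1% lower at the low dose. At the low dose 2 of 10 tested rose and 0 fell: Pgm2 (0.95) and hexokinase Hk2 (0.35). H6pd, the endoplasmic reticulum counterpart of G6pdx (-0.10), Prps1, which makes phosphoribosyl pyrophosphate (0.15), and Tktl1, a relative of transketolase (0.07), were not called, 3 examples chosen after their values were seen. Pgm2 averaged 8.79 ± 0.401 in low-dose knockouts and 7.77 ± 0.346 in low-dose wild types. At the high dose 0 of 10 were called, against 0.578% of all probes in either direction. In NAD and NADP synthesis 1 of 6 rose, Nadk, the cytosolic NAD kinase that makes NADP (0.29), and 1 fell, Naprt (-0.34).

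Among consumers of NADPH, calls at the low dose ran in both directions, as they did over all tested probes (10.8% higher and 10.1% lower). Of the redox enzymes, 2 of 13 rose at the low dose, the quinone reductase Nqo1 (0.60) and the biliverdin reductase Blvrb (0.46), and 1 fell, the aldose reductase Akr1b3 (-0.27). Of the lipid synthesis enzymes, 2 of 9 rose, among them Tecr (0.32), and 3 fell: the sterol enzymes Cyp51 (-0.92), Sc5d (-0.87) and Dhcr7 (-0.54). Cyp51 (-0.80 ± 0.145, limma adjusted p = 0.0017) and Sc5d (-0.48 ± 0.115, adjusted p = 0.0357) also fell in high-dose knockouts against high-dose wild types. These were the only 2 of the 9 lipid enzymes called there, and 0 of the 13 redox enzymes were, against 0.578% of all probes in either direction.

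Of the Nrf2 pathway markers, 8 of 14 tested rose and 0 fell at the low dose (median 0.21), against 10.8% of all probes higher. Nfe2l2, which encodes Nrf2 (0.04), and Keap1, its inhibitor (-0.08), both named after their values were seen, were not called. Ephx1 changed by 1.99, Gstm1 by 1.47 and Gclm by 1.18. Hmox1, heme oxygenase, was above background in all 10 low-dose knockouts and on no low-dose wild-type array. Its level in low-dose knockouts varied widely, from 6.38 to 10.4 (mean 8.26 ± 1.33, SD). That mean was at least 8.3-fold above the wild types taken at the lowest signal above background. The rise of these markers in these data was already known when the list was made, and Nqo1 and Txnrd1 belong to the redox list too. At the high dose 0 of 14 were called, with Gstm1 at 0.61 (limma adjusted p = 0.0544). Of all tested probes, 0.578% were called there in either direction.

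Markers of neurons and synapses moved with these results. At the low dose 3 of 4 tested excitatory neuron markers and 3 of 5 synaptic terminal markers fell, and none of either list rose. Of all tested probes, 10.1% were lower and 10.8% higher in this contrast. The summed signal of the excitatory list was 4142 to 7230 (median 5278) in low-dose knockouts and 5305 to 10040 (median 8117) in low-dose wild types. That of the synaptic list was 4294 to 12860 (median 5854) in low-dose knockouts and 4972 to 14590 (median 8841) in low-dose wild types, and both lists overlapped between the groups. Inhibitory markers had medians of 1278 in low-dose knockouts and 1743 in low-dose wild types (1 of 5 fell). Astrocyte markers had 13910 in low-dose knockouts and 14080 in low-dose wild types (1 of 6 rose and 2 fell), and oligodendrocyte markers 21790 in low-dose knockouts and 23020 in low-dose wild types (1 of 5 fell). Microglial markers, of which 2 of 6 fell, had 1472 in low-dose knockouts and 1832 in low-dose wild types. Endothelial markers had 188.0 in low-dose knockouts and 195.5 in low-dose wild types, and red blood cell markers 244.8 in low-dose knockouts and 307.0 in low-dose wild types, with no call in these last lists. At the high dose no tested marker of any of these lists was called, against 0.578% of all probes in either direction. Snap25, Neurod6, Gad2, Cdh5, Tek, Hbb-b1 and Alas2 were above background on fewer than 9 arrays. In such a bulk preparation fewer cells or terminals of a type and less RNA in each cannot be told apart, and the part of this shift in the members' changes was not tested.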

How the data were processed

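The authors deposited bead signal (intensity) per probe of 50 Illumina arrays, per the file headers, and a table of log2 values of the same arrays, which the authors had normalized by a method not given in the sources used here. Trizol extraction, 1 round of amplification and biotin labelling preceded hybridization, per the labels. The file holds no negative controls or detection p-values. In limma 3.58.1 (R 4.3.3), signals were corrected with normexp (all probes, offset 16), quantile normalized and put on the log2 scale. A probe was above background where it exceeded the array's lower signal peak by 1.645 SD, and the 13487 probes that did so on 9 or more arrays entered the test. The limma model had 5 groups and 7 chips as fixed factors (39 residual and 7.37 prior degrees of freedom), with p adjusted by Benjamini-Hochberg. Precision is limited by the number of arrays.

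Symbols of 7082 probes were updated through RefSeq (GRCm38.p6). The members and lists were chosen with earlier results of these data known. Named from each list were up to 4 called genes, by p, of the low-dose genotype comparison, and for each called member the 3 genes of highest correlation, of which 1 is not reported here. The fit was tested on simulated data. No pair of arrays was identical. Alternatives covered chip, position, background, normalization, filter, offset, arrays, probe choice and the deposited log2 table, and, chosen after seeing the data, Ddx3y class and members left out of the branch means. Figures were drawn with matplotlib.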

Additional observations from a re-analysis of the deposited data

Results flagged for a closer look

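The genotype effect differed between doses for 3 members in the test of the difference itself (limma, high minus low dose): G6pdx by -0.7642, Tkt by -0.6169 and Me1 by -0.532 log2 units, with 10 or 11 mice per group.

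Single arrays stood apart from their group in 3 of 32 combinations of a member and a group, where chance gives about 1 in 20. Idh1 was at 9.56 on 1 untreated wild-type array, with the nearest at 9.152, and at 8.527 on 1 high-dose wild-type array, with the nearest at 9.072. Rpia was at 4.868 on 1 high-dose wild-type array, with the nearest at 5.213. The low-dose wild types, with 11 arrays, were not examined for this.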

How the results depend on the processing

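Over 13 alternative settings, G6pdx was called for genotype at the low dose (0.796 to 1.05), for dose in knockouts (-0.837 to -0.658) and for the difference between genotype effects (-0.795 to -0.611) under each. Me1 (0.665 to 0.843) and Tkt (0.562 to 0.651) kept this low-dose genotype call under each. The number of members with a called difference between genotype effects was 1 with only the arrays of the contrast, against 3. Members higher in low-dose knockouts than in untreated wild types numbered 3 under median scaling, against 6. Members higher in high-dose knockouts than in untreated wild types numbered 0 with chip left out or made a random effect, median scaling, no filter, only the arrays of the contrast or without the 5 dimmest arrays, against 1. The causes were not tested. Median scaling moved the median of all probes by at most 0.1 in any contrast (-0.0908 for low-dose over untreated wild types). The branch difference in low-dose knockouts was 0.0563 without G6pdx and 0.572 without Tkt, as the members left out fix. It was 0.177 in the deposited log2 table, against 0.301. 

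Signs turned only for differences near 0 that were never called. For genotype at the low dose, Rpia gave -0.00899 under median scaling, -0.00123 under cyclic loess and -0.00269 in the deposited log2 table. For genotype at the high dose, Pgd gave -0.0387 with position, -0.0805 under median scaling, -0.00359 with only the arrays of the contrast, -0.0413 without the 5 dimmest arrays and -0.011 with Ddx3y class. Tkt gave 0.0137 under cyclic loess, 0.0198 in the deposited table and 0.00557 with only the arrays of the contrast, and Idh1 gave 0.00498 with no chip term, 0.00204 with a random chip, 0.01 under cyclic loess, 0.0245 in the deposited table and 0.00416 with only the arrays of the contrast. For dose in knockouts, Rpia gave -0.0101 with no chip term, -0.00841 with a random chip, -0.0017 both with no background correction and with offset 50, -0.0147 with only the arrays of the contrast, -0.0513 without the 5 dimmest arrays and -0.00448 with Ddx3y class. No paired analysis was possible because every replicate number belongs to a single mouse, so the groups share none.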
